A study of Homo sapiens with 23 samples.

Results

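R248Q is the p53 missense mutant in which glutamine replaces an arginine of the DNA-binding domain, and its RNA-seq library from the mammary epithelial line MCF10A was set against the libraries of 9 other p53 mutants made in the same cells. It is 1 of 13 RNA libraries in a series of 23 samples. The 14884 of 58358 genes whose log2(TPM+1) was at least 1 in at least 3 of the 13 libraries were compared, TPM being a transcript's abundance relative to all others after correction for length. A gene was called higher when its level in R248Q lay above the highest of the other 9 lines and at least 1 above their mean, and lower when it lay below the lowest and at least 1 below their mean. Each line is represented by 1 library, so the spread within R248Q is unknown, and a permutation of 1 line against 9 could not give a p under 0.1. No test was therefore made, and a call says only where this library stood.

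R248Q, R248W, R273C and R273H are DNA contact mutants. Structural mutants make up the rest and comprise Y163C, R175H, H179R, Y220C, Y234C and G245S. Each was expressed from the lentiviral vector pLenti4/V5-DEST with a V5 tag at the C terminus, in stable lines that keep the endogenous wild-type gene of MCF10A, and none was treated. By western blot, the paper reports raised p53 protein in every mutant line but Y234C. The 3 control lines are unmodified WT cells, WTKD cells with an shRNA against p53 and WTOE cells carrying wild-type p53 in the vector pLX304, which differs from the vector of the mutants. Whether a line is a clone or a pool is not given in the sources used here, and differences between R248Q and another line cannot be told apart from differences between infected populations.

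p53 binds DNA as a tetramer and switches on genes that halt the cell cycle, repair DNA or start apoptosis. This arginine reaches into the minor groove of the bound DNA, and its loss removes a contact with the helix while most of the fold remains. Mutant subunits can join wild-type ones in mixed tetramers, which is why a mutant can act in a cell that keeps its own p53.

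The controls are named here by their labels. CDKN1A, a gene that p53 switches on, had a log2 level of 6.46 in WTOE and 6.95 in WTKD, against 7.78 in WT, so the library labelled WTOE did not show more of it than WT. R248Q had 14205 genes above 0, within the 12122 to 15975 of the other mutants, and its 50 most abundant genes took 31.6% of the TPM, against 27.1% to 46.8% elsewhere. The depth of each library is unknown, since no counts were used. The paper reports that most reads of each library were duplicates, so absent levels and large differences call for caution. Over the genes compared, R248Q lay nearest to R273C (distance 170, Pearson's r = 0.837 across genes) and farthest from R273H (r = 0.772) and Y234C (r = 0.779). This was not particular to R248Q. R273H and Y234C had the lowest mean r with the other mutants, 0.777 and 0.779. For R273C the mean r was 0.845, among the highest, and for R248Q it was 0.813. The same-residue mutant R248W came after R273C by correlation, with r = 0.829, and after R273C, Y220C and Y163C by distance, with 176.5. These are correlations across genes of libraries made in 1 cell line, and genes are not independent replicates.

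R248Q kept the basal mammary profile of MCF10A in part. Keratin 5 (KRT5) stood at a log2 level of 10.01 in R248Q, against 9.97 to 11.85 in the other mutants, vimentin (VIM) at 9.94 against 7.74 to 10.21, and the EGF receptor (EGFR) at 7.93 against 7.13 to 8.53. E-cadherin (CDH1), which defines epithelial junctions, stood at only 0.96, against 0.25 to 6.29. The 10 basal markers summed to 3081 TPM in R248Q, against 2183 to 4858 TPM in the other mutants. Of non-epithelial markers, the endothelial genes summed to 1.96 TPM in R248Q, against 0 to 6.13 TPM, and the blood genes to 10.4 TPM against 0 to 25.6 TPM.

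Of the genes compared, 1535 were higher in R248Q, which is 10.3% of all genes tested, and 470 were lower, which is 3.16%. Beyond the 9 other mutants, 1229 of the higher genes were also above all 3 control lines, and 369 of the lower genes below all 3. Most higher genes were well expressed, with 1300 at a log2 level of at least 3 in R248Q, while 9 were listed at 0 in every other mutant. Protein-coding genes made up 11562 of the 14884 genes compared, 1168 of the 1535 higher and 442 of the 470 lower genes. Just inside the limit of 1 lay SLC50A1 (difference 1.002) and CUL2 (-1.001), and just outside it RAPGEF1 (0.9999) and PPP1R18 (-0.9985). When each of the other mutants was compared with its own 9 counterparts by the same rule, it had 930 to 1453 higher and 111 to 3804 lower genes, so that R248Q had the most higher genes of the 10 lines by a narrow margin over H179R (1453) and R248W (1425).

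**Figure D1:**
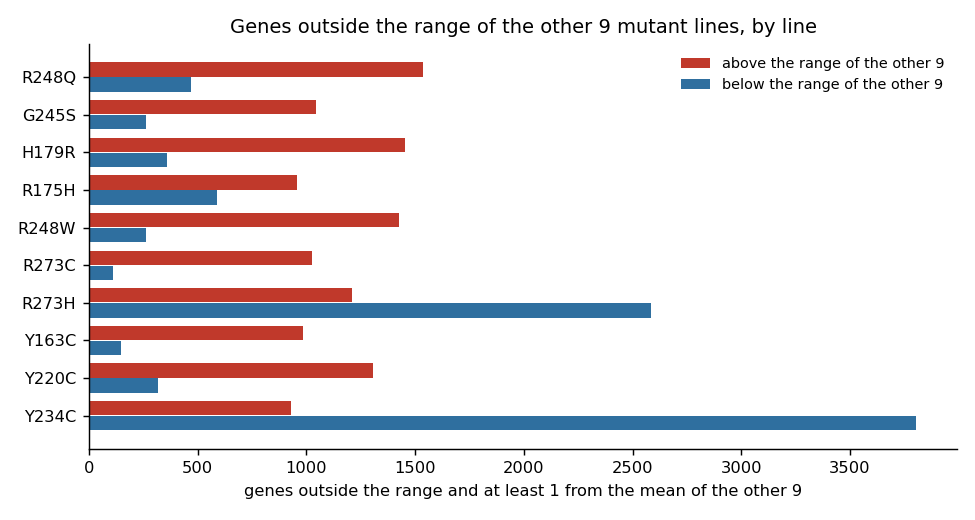
Genes outside the range of the other 9 mutant lines and at least 1 from their mean on log2(TPM+1), for each of the 10 mutant lines, with genes above the range in red and below it in blue. R248Q has 1535 genes above and 470 below, while R273H (2584) and Y234C (3804) have the most genes below.

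Of all calls, 76.6% were in the higher direction, and this split depended on the scaling. Quantile normalization gave 1317 higher and 1038 lower genes (55.9% higher), with the median gene at -0.104 relative to the mean of the others, and leaving out R273H and Y234C gave 1673 and 1486 (53% higher), with the median gene at -0.199. The transcript GC content moved with the difference. Among 14786 genes with a GC value, higher genes had a median of 52.5%, all genes 46.7% and lower genes 44.9%. Genes called higher made up 4.39% of the genes in the lowest of 10 equal groups by GC content and 20.1% in the highest. Across genes, the difference correlated with GC content at r = 0.209 in R248Q, and at -0.279 to 0.353 when each other mutant was taken in turn, with Y234C at the top. When each library was centred within 50 bins of GC content, an alternative chosen after seeing the data, 1114 genes were higher and 1507 lower (42.5% higher), of which 939 higher and 412 lower genes were shared with the first calls. Of the 117 named genes with a call, 86 kept it under this centring. The part of GC content in the results was not tested.

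**Figure D2:**
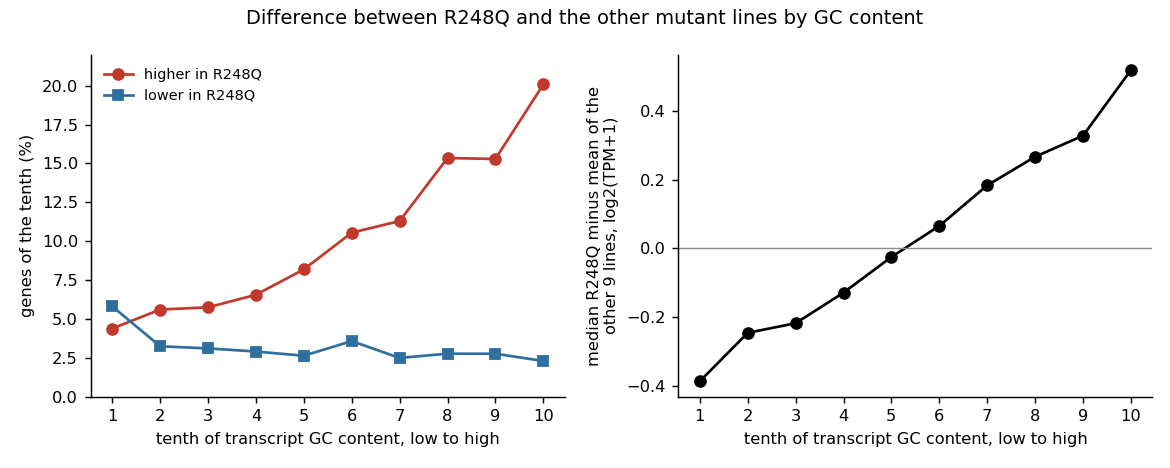
Genes compared, split into 10 equal groups by transcript GC content, from low to high on the x axis. The left panel gives the percentage of each group called higher (red) or lower (blue) in R248Q and the right panel the median difference on log2(TPM+1), which runs from -0.39 in the lowest group to 0.52 in the highest.

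Among named genes, those farthest above the range came from unrelated functions. In what follows a gene's log2(TPM+1) level in R248Q is given first and then the lowest, median and highest level of the other 9 mutants. MPG (ENSG00000103152, chromosome 16, 77007 to 85851), the glycosylase that removes alkylated bases from DNA, was at a level of 9.02 in R248Q, against 1.62, 3.82 and 5.18, a difference of 5.38 from the mean of the others. Exons of MPG overlap those of NPRL3 on the opposite strand, so reads of this pair may be shared. APOBEC3B (ENSG00000179750, chromosome 22, 38982347 to 38992804), a cytidine deaminase that mutates single-stranded DNA, was at 5.83 in R248Q, against 0, 0 and 1.87. Its level in WT cells was 3.53, while the libraries labelled WTKD and WTOE were listed at 0. Reads of the near-identical APOBEC3A and other family members may be shared, so its level is uncertain.

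IGFBP3 (ENSG00000146674), a secreted protein that binds insulin-like growth factors, had a level of 9.29 in R248Q, against 0, 4.30 and 6.45. R248W was the highest of the others, and Y234C was listed at 0. DHRS9, a retinol dehydrogenase, stood at 6.05 in R248Q, against 0, 0 and 2.62, and again R248W was the highest of the others. The mitochondrial carrier SLC25A25 reached 6.30 in R248Q, against 0.56, 2.27 and 2.57. The NF-kappaB subunit REL was at 6.04 in R248Q, against 1.21, 3.02 and 3.55, a difference of 3.33. These genes were picked for lying above the range, so the lack of overlap with the other mutants follows from the choice. GPRC5B (level 3.34) and SLC5A4 (level 2.72) were listed at 0 in all 9 other mutants, but in WTOE and WT cells GPRC5B had levels of 3.02 and 1.80 and SLC5A4 had 0 and 3.40, so these were not genes seen in R248Q alone. The remaining genes of the 15 farthest above, not described elsewhere, are SP140, C17orf67 and VASH1, with levels of 3.84, 6.0 and 4.18 in R248Q.

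The genes farthest below the range likewise had varied functions. HIST1H2AE (ENSG00000277075, chromosome 6, 26216921 to 26217437), a replication-dependent histone H2A gene, was at 1.01 in R248Q, against 5.43, 7.09 and 8.63, a difference of -6.05, with the caution that the H2A genes are near-identical. SAMD1, which binds unmethylated CpG islands, was listed at 0 in R248Q, against 3.03, 4.16 and 5.62. The nuclear pore protein NUP35 had 0.63 in R248Q, against 3.26, 4.56 and 4.87. PINX1, an inhibitor of telomerase, had 0.42 in R248Q, against 2.83, 3.49 and 5.26, but it was listed at 0 in WT cells. This entry (ENSG00000254093) shares exons with another entry of the same name on the same strand, so its level is uncertain. The rest of the 15 farthest below, apart from those described later, are PPP1R14C, NUDCD3, TSTA3, GPR75, ECSIT, TBC1D7, NR2C2AP and DYNLL2, each at a level of 2.40 or less in R248Q. GPR75 was listed at 0 there, and its exons overlap those of ASB3 on the same strand.

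Single epithelial adhesion genes lay below the range, while the junction and polarity list as a whole had 2 higher and 1 lower of 25, near the shares of all genes. EPCAM (ENSG00000119888, chromosome 2, 47345158 to 47387601), the epithelial cell adhesion molecule, was at a level of 2.53 in R248Q, against 3.51, 7.61 and 8.17, a difference of -4.51. R273H was the next lowest mutant at 3.51, G245S had 5.16, and every remaining mutant had 7.47 or more. P-cadherin (CDH3), the cadherin of basal mammary cells, was at 3.51 in R248Q, against 4.59, 6.05 and 6.89 (difference -2.48), with R273H the lowest of the others. In bulk RNA, fewer cells of a type and less RNA per cell cannot be told apart.

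The desmosome joins epithelial cells through desmocollins and desmogleins anchored to keratin. Of its 8 genes that passed the filter, 2 were lower and none was higher in R248Q, the median difference was -0.83, and all 8 lay below the mean of the others. Lower genes were 25% of the list, against 3.16% of all genes. DSC2 (desmocollin 2) was at 0.27 in R248Q, against 2.23, 3.70 and 3.80, and DSC3 (desmocollin 3) at 2.82, against 3.09, 5.16 and 5.61. Desmoglein 3 (DSG3), with 0.46 in R248Q, was not called because R273H had 0.08, whereas the median of the others was 5.00. Without R273H, 4 of the 8 genes were lower, the same number as under GC content centring. Of all genes, 5.05% and 10.1% were lower in these settings.

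E-cadherin followed the same arrangement. CDH1 (ENSG00000039068) was at 0.96 in R248Q, inside the range of the others only because R273H had 0.25, since the remaining 8 mutants had levels of 4.47 to 6.29 and the 3 control lines 5.59 to 6.41. ESRP1, the splicing factor of epithelial isoforms, had 0.49 in R248Q and 0.22 in R273H, with a median of 4.86 over the 9 lines, and the integrin subunit ITGB6 had 0.15 in R248Q and was listed at 0 in R273H, with a median of 3.24. ESRP1, DSG3 and ITGB6 were picked after their values were seen. Of 25 junction and polarity genes that passed, 2 were higher (SCRIB and LLGL2) and 1 lower (CDH3). The median difference of this list was -0.36. With quantile normalization 1 was higher and 6 were lower, and with GC content centring none was higher and 6 were lower, CDH1 among them in both. Without R273H alone 2 were higher and 4 lower, and without R273H and Y234C 3 were higher and 7 lower. The shares of all genes called lower in these settings were, in the same order, 6.97%, 10.1%, 5.05% and 9.98%.

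Transcription factors of epithelial identity lay on both sides of the range, with 2 of 13 higher and 2 lower. Each share was 15.4%, against 10.3% of all genes higher and 3.16% lower. OVOL2, a repressor of mesenchymal genes, was listed at 0 in R248Q, against 0.49, 3.16 and 4.54, although it was also listed at 0 in the libraries labelled WT and WTOE. R273H was again the lowest of the others. GATA3 (ENSG00000107485), the regulator of luminal mammary cells, was instead at 7.56 in R248Q, against 1.44, 3.89 and 4.87, a difference of 3.89, and it exceeded the control lines, which had 3.95 to 5.32. KLF4 was at 3.40 in R248Q, against 0, 0 and 2.55.

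Keratins, the filaments of epithelial cells, were not lost in R248Q. Of 12 that passed, 3 were higher (25%) and 1 lower (8.3%), against 10.3% and 3.16% of all genes. KRT14 (ENSG00000186847), the partner of KRT5 in basal cells, was at 8.23 in R248Q, against 0, 3.14 and 6.23. In WTOE cells it was at 7.41, so its level in R248Q was near that of 1 control. The simple-epithelial keratin KRT8 had 7.83 in R248Q, against 5.27, 6.13 and 6.61 (difference 1.80), and KRT17 had 6.89, against 2.48, 6.13 and 6.73. KRT17 lost its call under quantile normalization, upper quartile scaling and GC content centring. KRT6A, a keratin of wound edges, was the lower member at 9.02 in R248Q, against 10.02, 10.30 and 10.98. KRT14 and KRT6A share sequence with KRT16, KRT6B and their pseudogenes, so reads may be split between them.

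**Figure D3:**
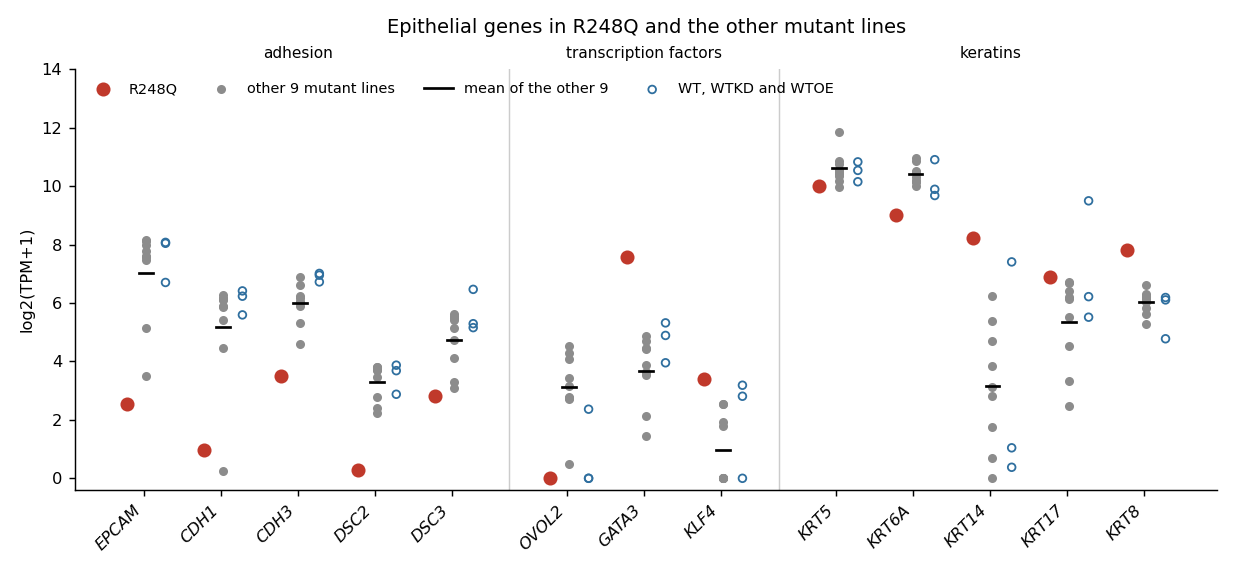
Levels as log2(TPM+1) of epithelial adhesion genes, transcription factors and keratins, with R248Q as a large red point left of the other 9 mutant lines (grey, black bar at their mean) and the 3 control lines (open blue). EPCAM (2.53 in R248Q) and DSC2 (0.27) lie below every other line, CDH1 (0.96) lies below 8 of the 9 other mutants, and GATA3, KRT14 and KRT8 lie above the other mutants.

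Genes of the mesenchymal state were the list with the largest share of higher members. Of 17 that passed, 7 were higher (41.2%, against 10.3% of all genes) and none was lower. Above the mean of the others lay 15, and the median difference was 1.40 against -0.008 over all genes. FN1 (ENSG00000115414), fibronectin, was at a level of 9.76 in R248Q, against 5.31, 7.23 and 8.73, a difference of 2.50, and R248W was the highest of the others. In WTOE cells FN1 was at 9.61. TGFBI, a matrix protein induced by TGF-beta, had 10.87 in R248Q, against 8.57, 9.49 and 10.84, so that it passed R248W by a margin of 0.024. Fibrillin (FBN1) had 4.78 in R248Q, against 0.05, 3.09 and 4.55.

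Of the repressors that drive the mesenchymal transition, SNAI2, TWIST2, ZEB1 and ZEB2 stood above the range. SNAI2 was at 7.75 in R248Q, against 5.17, 6.54 and 7.28, a difference of 1.42. TWIST2 had 6.35 in R248Q, against 1.97, 4.38 and 5.46 (difference 2.15). ZEB1, a direct repressor of E-cadherin, had 3.71 in R248Q, against 0.26, 2.73 and 3.27, and ZEB2 had 3.90, against 0.36, 2.1 and 3.49. Their relatives SNAI1 (3.47 in R248Q, others 0 to 4.69) and TWIST1 (5.79 in R248Q, others 3.01 to 6.16) stayed inside the range, as did N-cadherin (CDH2), at 5.93 in R248Q against 4.10 to 6.98. R273H, the other line with little E-cadherin, had the lowest ZEB1 level and the highest SNAI1 level, so these repressors were not alike in the lines with low CDH1.

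GC content centring left 6 mesenchymal genes higher and made 1 lower, TAGLN, which was listed at 0 in R248Q. The calls of FN1, SNAI2, TWIST2 and ZEB2 held under each scaling, while ZEB1 lost its call without R273H and Y234C, TGFBI and FBN1 under quantile normalization, and FBN1 also under GC content centring and upper quartile scaling. Only FN1 and TWIST2 were at least 2 above the mean of the others. Fibroblast markers were read beside these genes, since mesenchymal genes are shared with fibroblasts. Of 8 such markers, 5 passed the filter and 1 was higher, with a median difference of 2.17. The 8 summed to 68.7 TPM in R248Q, against 4.66 to 76.8 TPM in the other mutants. Decorin (DCN) was at 5.56 in R248Q against 1.18 to 5.59, lumican (LUM) at 3.36 against 0 to 3.64 and PDGFRB at 2.60 against 0 to 2.23. The marker FAP was at 3.01 in R248Q against 0.29 to 5.12, below the mean of the others. Of the 5 markers that passed, 3 lay above the mean of the others. The defining collagens were at or near 0, with COL1A1 at 0.11 and COL1A2 at 0 in R248Q, and the summed level in R248Q lay inside the range of the other mutants.

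YAP and TAZ are coactivators that carry no DNA-binding domain and act through TEAD factors, in cells that are spread, stretched or freed from contact inhibition. Of 22 targets on a list, 8 were higher in R248Q (36.4%, against 10.3% of all genes) and none was lower. The median difference was 0.47. CTGF (ENSG00000118523, now CCN2), a matricellular protein, was at a level of 8.54 in R248Q, against 4.99, 6.48 and 7.85, and its relative CYR61 (CCN1) at 8.59, against 5.61, 7.53 and 8.19. ANKRD1 (ENSG00000148677), a stretch-responsive cofactor, had 6.90 in R248Q, against 0, 2.72 and 5.77. In R248W it had 5.77, the only other mutant above 3.90.

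The kinase NUAK2 was at 4.12 in R248Q, against 0.21, 2.40 and 3.68, but all 3 control lines lay at 4.31 to 4.86, above R248Q. THBS1, thrombospondin, which activates latent TGF-beta, had 10.81 in R248Q, against 8.06, 8.67 and 10.04 (difference 1.98). CRIM1, a membrane protein that binds BMPs, had 8.44 in R248Q, against 5.79, 6.81 and 7.63, and AMOTL2, which binds YAP at junctions, had 5.97, against 3.46, 4.77 and 5.46. Of the coactivators, YAP1 (ENSG00000137693) was lower, at 5.20 in R248Q, against 6.14, 6.54 and 7.14, while WWTR1, the gene of TAZ, was at 6.33 against 4.68 to 6.79. The other 14 of the 22 targets were not called. All 8 higher targets kept their call under quantile normalization and upper quartile scaling, where 1 member, the upstream regulator WWC1, became lower. GC content centring left 4 (CTGF, ANKRD1, CRIM1 and TGFB2).

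**Figure D4:**
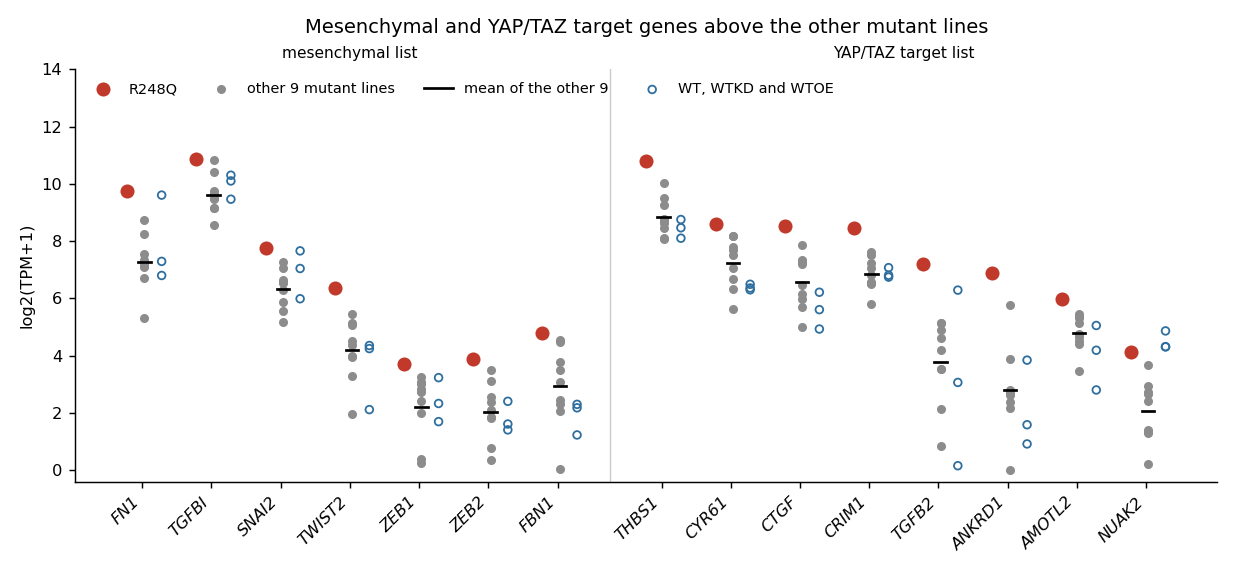
Levels as log2(TPM+1) of the 7 mesenchymal genes and the 8 YAP/TAZ targets called higher, with R248Q as a large red point left of the other 9 mutant lines (grey, black bar at their mean) and the 3 control lines (open blue). R248Q lies above all other mutants in each gene, by 0.024 for TGFBI and by 2.05 for TGFB2, and below the controls for NUAK2. GC content centring removes the call of FBN1, THBS1, CYR61, AMOTL2 and NUAK2.

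TEAD factors recognise the letters GGAATG, or CATTCC on the other strand. The 250 bases before the start site of list members were searched in RefSeq promoters of GRCh38.p14, in which 17 of the 22 genes had an entry. A match on either strand was found in 11.9% of all 35116 windows. It was found in 6 of the 6 higher genes with an entry and in 3 of the 11 not called, where a gene counts if any of its windows holds a match. A match is not a bound site. The list was made of genes activated through TEAD, and the 11.9% counts single windows while the list counts genes. The higher genes CYR61 and CRIM1 had no entry. The promoters of the 3 higher genes with more than 1 match are shown with the letters in capitals, for CCN2 (chr6:131951373-131951622, minus strand), ANKRD1 (chr10:90921088-90921337, minus strand) and NUAK2 (chr1:205321746-205321995, minus strand).
CCN2: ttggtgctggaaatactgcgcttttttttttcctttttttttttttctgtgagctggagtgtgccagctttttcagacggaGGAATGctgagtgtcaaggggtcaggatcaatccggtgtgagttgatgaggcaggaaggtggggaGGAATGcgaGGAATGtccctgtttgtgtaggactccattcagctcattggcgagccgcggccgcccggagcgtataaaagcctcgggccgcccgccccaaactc
ANKRD1: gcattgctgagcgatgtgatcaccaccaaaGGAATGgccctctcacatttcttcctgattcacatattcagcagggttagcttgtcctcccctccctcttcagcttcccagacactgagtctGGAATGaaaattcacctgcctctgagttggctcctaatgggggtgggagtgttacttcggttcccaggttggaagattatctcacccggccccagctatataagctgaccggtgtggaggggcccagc
NUAK2: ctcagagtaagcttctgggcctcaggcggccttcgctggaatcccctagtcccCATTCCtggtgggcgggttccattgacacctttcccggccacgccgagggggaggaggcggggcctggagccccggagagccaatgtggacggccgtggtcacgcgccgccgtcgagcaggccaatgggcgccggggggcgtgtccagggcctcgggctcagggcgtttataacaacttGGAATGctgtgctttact

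TGF-beta ligands signal through SMAD proteins and are a known inducer of the mesenchymal transition. TGFB2 (ENSG00000092969, chromosome 1, 218345336 to 218444619), a ligand counted on the YAP/TAZ list and not on the TGF-beta list, was at a level of 7.20 in R248Q, against 0.83, 4.21 and 5.16, a difference of 3.42. The control lines ranged from 0.16 in WT to 6.29 in WTOE. TGFB2-AS1 (ENSG00000232480), which overlaps it on the opposite strand, had 7.0 in R248Q, against 0, 0 and 3.73, and only R248W (3.73) and Y220C (2.86) among the others were above 0. The strand setting of the counting is not given in the sources used here, so reads of this pair may be shared.

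Of 26 genes on the TGF-beta and activin list, 4 were higher and none was lower, with a median difference of 0.18, a share of 15.4% near the 10.3% of all genes. TGFB1 was at 5.21 in R248Q, against 3.29, 4.34 and 4.81, the latency protein LTBP3 at 4.60, against 2.04, 3.39 and 3.94, the ligand GDF11 at 3.35, against 0, 2.03 and 2.87, and the type I receptor ACVR1B at 4.29, against 0.10, 2.73 and 4.24. Without R273H, 6 were higher and 1 lower. Under GC content centring only GDF11 stayed higher, and BMP2 and LTBP2 were lower.

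Lists of the matrix and its receptors had smaller shares of higher genes than the mesenchymal and YAP/TAZ lists. The shares were 18.8% for basement membrane and hemidesmosome, 25% for collagens, 12.5% for matrix proteases and 0% for integrins, against 10.3% of all genes. Of 16 genes of the basement membrane and hemidesmosome, 3 were higher, namely the laminin chain LAMA5 (6.62 in R248Q, against 4.38, 5.04 and 5.98), perlecan (HSPG2, 5.74, against 2.76, 3.82 and 5.03) and the hemidesmosome integrin ITGB4 (7.76, against 4.51, 6.32 and 6.94). Their transcripts have GC contents of 66.4%, 64.5% and 63.6%, and none kept its call under GC content centring. Among 8 collagens, COL6A1 had 4.96 in R248Q, against 0, 1.30 and 3.21, and COL12A1 had 8.29, against 4.94, 6.73 and 7.43. None of 11 integrins was called, although ITGA5 (7.52 in R248Q, against 5.76, 6.70 and 7.35) lay above the range, at less than 1 from the mean. Of 16 matrix proteases and inhibitors, PLAT (5.86 in R248Q, against 0, 4.11 and 5.21) and SERPINB2 (3.07, against 0, 0 and 2.1) were higher, both of the plasminogen system. GC content centring ended the call of PLAT. SERPINB2 was higher still in WTOE cells, at 3.81.

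EGF receptor ligands lay on both sides of the range. MCF10A cells need EGF and release ligands of their own. AREG, amphiregulin, was at a level of 10.39 in R248Q, against 8.32, 9.08 and 9.40 (difference 1.38), and EREG, epiregulin, at 5.67, against 1.32, 3.12 and 4.60 (difference 2.56). TGFA (ENSG00000163235), transforming growth factor alpha, was at 1.14 in R248Q, against 3.14, 4.66 and 4.86, a difference of -3.18, and its levels in the 3 control lines were 4.76 to 5.12. These 3 calls, of 10 genes on the list, held under each scaling. Higher genes were 20% and lower genes 10% of the list, against 10.3% and 3.16% of all genes. HBEGF was inside the range, at 3.27 in R248Q against 0.18 to 4.16.

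Of 15 genes switched on by growth factor signalling, many of which dampen it, 4 were higher and none was lower. The median difference was -0.15, and the share of higher genes was 26.7%, against 10.3% of all genes. SPRY2 was at 6.19 in R248Q, against 2.29, 4.66 and 5.94, SPRED1 at 5.81, against 2.71, 4.67 and 5.78, and ERRFI1, which inhibits the EGF receptor, at 8.52, against 4.96, 7.46 and 8.01. Cyclin D1 (CCND1), a late target of the same signal, was at 9.25, against 6.05, 8.40 and 8.82. Without R273H and Y234C, SPRY2 alone was called, whereas GC content centring left SPRED1 and ERRFI1. Of 13 immediate early genes, JUNB (6.29 in R248Q, against 1.96, 4.03 and 5.58), JUND (6.60, against 4.75, 5.45 and 6.30) and JUN (3.50, against 0.18, 2.59 and 3.47) were higher, and only JUNB under GC content centring. The share of higher genes was 23.1%, against 10.3% of all genes. JUND and JUN were both higher in WTOE cells than in R248Q, at 6.95 and 3.79.

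Apoptosis genes lay on both sides of the range. FADD (ENSG00000168040), the adaptor that links death receptors to caspase 8, was at a level of 7.26 in R248Q, against 1.36, 3.57 and 4.63, a difference of 4.0, and the 3 control lines had 1.99 to 4.24. FAS, a death receptor that p53 induces, was lower, at 3.01 in R248Q, against 3.53, 5.66 and 6.61. Of 12 genes of the BCL2 family that passed, 3 were higher (25%) and 1 lower (8.3%), against 10.3% and 3.16% of all genes. The pro-apoptotic BAD had 8.01 in R248Q, against 3.87, 5.16 and 5.80 (difference 2.94), BOK had 4.99, against 1.13, 2.93 and 4.35, and the pro-survival BCL2L2 had 4.09, against 0, 2.73 and 3.41. The pro-survival gene BCL2 had 0.92 in R248Q, against 1.19, 1.87 and 6.12, and the high value was that of R273H. Without R273H BCL2 was no longer called, whereas FADD, BAD and BOK kept their calls under quantile normalization, upper quartile scaling and GC content centring.

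Canonical p53 targets leaned to lower levels in R248Q, but few were outside the range. Of 32 that passed, 2 were higher and 3 lower, with a median difference of -0.43, and 10 lay above the mean of the others. The share of lower members, 9.4%, stood against 3.16% of all genes, and that of higher members, 6.2%, against 10.3%. CDKN1A, which encodes the cell-cycle inhibitor p21, was at 7.55 in R248Q against 5.18, 7.09 and 8.02, and MDM2, the ligase that degrades p53, at 5.31 against 4.34, 5.84 and 6.43. Both lay within the range. The lower targets beside FAS were AEN, a nuclease of apoptosis (2.16 in R248Q, against 3.46, 3.91 and 5.51), and PHLDA3, an inhibitor of AKT (3.11, against 3.92, 4.65 and 5.22). Among the higher targets was the stress sensor GADD45A, with 5.56 in R248Q against 0.27, 4.35 and 5.25. GC content centring gave 6 lower targets and leaving out R273H and Y234C gave 7, with GADD45A still higher in each. The shares of all genes called lower in these settings rose as well, to 10.1% and 9.98%. The pro-apoptotic target BBC3 did not pass the filter and was at 3.05 in R248Q, 3.27 in R273C and 0 as the median of the others.

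Inflammatory and immune genes gave single strong values and no list-wide pattern. CXCL1 (ENSG00000163739), a neutrophil chemokine, was at a level of 12.53 in R248Q, against 5.46, 8.14 and 10.80, a difference of 4.79, and the control lines had 5.42 to 7.59. Y220C was the next highest mutant. CXCL1 shares sequence with CXCL2 and CXCL3. The chemokine CCL20 was at 1.79 in R248Q, against 4.56, 5.90 and 7.08 (difference -4.08), although the library labelled WTOE had only 0.48. CSF1, the macrophage growth factor, was at 6.20 in R248Q, against 3.25, 4.27 and 5.32. These were the 3 calls among 17 cytokines, whose median difference was -0.16. The shares were 11.8% higher and 5.9% lower, against 10.3% and 3.16% of all genes.

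Of 23 interferon-response genes, only IFIT3 (4.35 in R248Q, against 0, 2.07 and 3.31) and USP18 (3.32, against 0, 0.30 and 2.48) were higher. Of 14 genes of the MHC class I pathway, HLA-E (6.69 in R248Q, against 4.13, 5.25 and 6.49) and ERAP1 (4.74, against 0.65, 3.97 and 4.68) were higher and the light chain B2M lower, at 6.83 in R248Q, against 6.87, 7.78 and 9.12. None of the 3 kept its call under GC content centring. LCN2, an iron-binding protein of inflamed epithelium, was at 5.20 in R248Q, against 0, 0 and 2.31, and was the only call among 7 squamous differentiation genes. S100A3 had 8.00 in R248Q, against 4.21, 5.86 and 6.49, and S100P had 3.99, against 0, 0 and 3.57, the 2 calls among 11 S100 genes. The metallothioneins MT1X (4.70 in R248Q, against 5.50, 6.34 and 7.52) and MT1M (2.97, against 0, 0 and 2.25) lay on opposite sides of the range, and their near-identical copies make both uncertain. Higher genes made up 8.7% of the interferon list and 14.3% of the MHC class I and squamous lists. Their share was 18.2% for S100 genes and 16.7% for metallothioneins, against 10.3% of all genes. Lower genes were 7.1% for MHC class I and 16.7% for metallothioneins, against 3.16%.

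Of 28 Notch and Wnt genes, 5 were higher and none was lower, a share of 17.9% against 10.3% of all genes. DKK1, a Wnt antagonist, was at 11.34 in R248Q, against 7.82, 9.37 and 10.03 (difference 2.17), with R248W the highest of the others. WNT5A, a ligand of non-canonical Wnt signalling, had 5.69 in R248Q, against 0.73, 3.64 and 4.74, and TCF7L1, a Wnt-pathway repressor, had 4.53, against 0, 1.51 and 3.12. The Notch ligand JAG2 had 4.61 in R248Q, against 1.78, 3.42 and 4.37. DKK1, WNT5A and TCF7L1 kept their calls under quantile normalization, upper quartile scaling and GC content centring, and JAG2 under none of them. FZD2 was the fifth higher gene of this list. Of 19 receptor kinases, 4 were higher (TYRO3, EPHA4, PDGFRB and ROR1), a share of 21.1% against the same 10.3%, and 1 was lower. MST1R, the receptor of macrophage-stimulating protein, was the lower gene at 0.15 in R248Q, against 1.54, 3.10 and 4.75. EPHA4 had 3.06 in R248Q, against 0, 0 and 1.73, and ROR1, a Wnt5a receptor, had 5.13, against 2.11, 3.52 and 4.96. Of the higher receptor kinases, EPHA4 alone kept its call under GC content centring.

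Proliferation and metabolism genes gave smaller shares of calls than the mesenchymal and YAP/TAZ lists. Of 30 cell cycle genes, UBE2C (10.40 in R248Q, against 7.12, 8.77 and 9.38) was higher and PCNA (7.25, against 7.44, 8.22 and 9.09) lower, each 3.3% of the list. PCNA was no longer called without Y163C or without Y220C. UBE2C was at 9.73 to 10.13 in the control lines. All but 1 of 20 NRF2 targets lay above the mean of the others, with a median difference of 0.54, and 3 were higher. These were GCLC, which makes the first step to glutathione (7.33 in R248Q, against 4.06, 6.54 and 7.06), and the ferritin chains FTL (13.66, against 12.08, 12.42 and 12.78) and FTH1 (10.43, against 7.16, 7.85 and 9.84). Of 23 glycolysis and hypoxia genes, 4 were higher, including GAPDH (13.74 in R248Q, against 11.65, 12.70 and 13.30) and NDRG1 (6.19, against 3.09, 4.25 and 4.98). Of 28 cholesterol synthesis genes, 3 were higher, among them MVD and TM7SF2, and 1 was lower (PMVK). Of 17 protein and amino acid stress genes, CALR (10.79 in R248Q, against 8.62, 9.67 and 10.41) and HERPUD1 (6.40, against 4.75, 5.37 and 6.26) were higher. GAPDH, FTL, CALR, HERPUD1 and MVD lost their calls under GC content centring. Higher genes were 15% of the NRF2 list and 17.4% of the glycolysis and hypoxia list, against 10.3% of all genes. They were 10.7% of the cholesterol synthesis list and 11.8% of the protein and amino acid stress list.

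**Figure D5:**
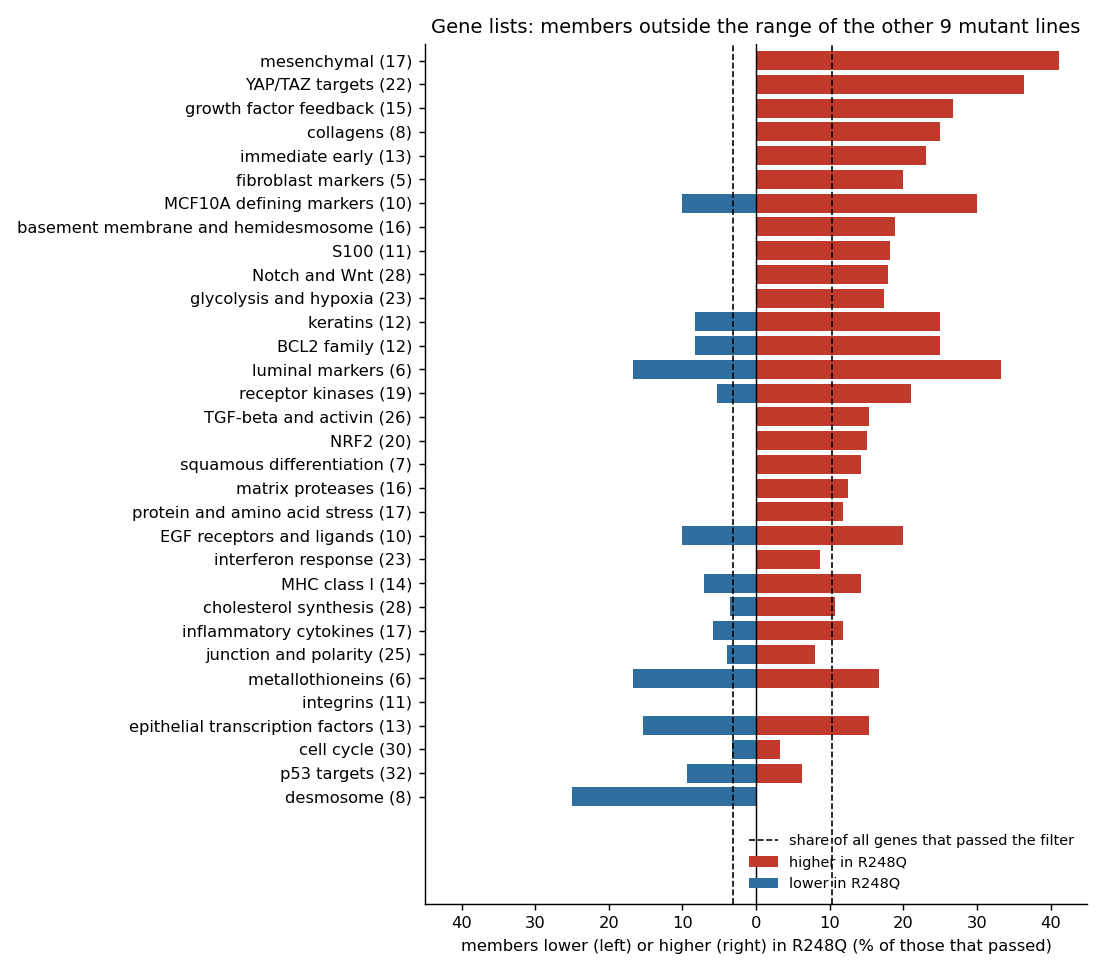
Share of the members of each list (only lists with at least 5 that passed the filter) that were higher (red, to the right) or lower (blue, to the left) in R248Q, as a percentage of the members that passed, whose number follows the name. Dashed lines mark 10.3% and 3.16% of all genes. The mesenchymal (41.2%) and YAP/TAZ target (36.4%) lists reach farthest to the right and the desmosome (25% lower) farthest to the left, while several shares change with GC content centring, the basement membrane list falling to none.

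R248W changes the same residue to tryptophan, and its library was not a copy of R248Q. The difference between R248Q and R248W was at least 1 in 2591 genes and at most -1 in 3333 of the 14884. Of the 1535 higher genes, R248W was the highest of the other 9 lines in 256. R273C came close behind, G245S was so in 202, and the remaining lines in 100 to 180. Among the named higher genes, R248W was the next highest line for IGFBP3, DHRS9, TGFB2-AS1, FN1, TGFBI, ANKRD1, CRIM1, DKK1 and KLF4. It was also next highest for CCND1, JUN, GCLC, FTL, HERPUD1, NDRG1, GAPDH, EGLN3 and BCL2L2, so these genes had varied functions. Some epithelial genes differed between the mutants of this residue, in both directions. EPCAM was at 2.53 in R248Q and 8.14 in R248W, CDH1 at 0.96 and 6.15, CDH3 at 3.51 and 6.89 and OVOL2 at 0 and 4.54. EPCAM, CDH3 and OVOL2 were picked for lying below all other mutants, so a higher level in R248W follows from the choice. KRT5 was at 10.01 in R248Q and 10.19 in R248W. KRT14 was instead higher in R248Q, at 8.23 against 0.71 in R248W, and so was TP63, the master regulator of basal epithelium, at 3.25 against 0. GATA3 (7.56 and 3.89) and KRT8 (7.83 and 6.32) were also higher in R248Q. KRT14, GATA3 and KRT8 were picked for lying above all other mutants. No spread is known for either line, so these are differences between 2 libraries.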

How the data were processed

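RNA of 13 MCF10A lines was measured by paired-end RNA-seq after amplification from total RNA, with 1 library per line. According to the methods, the authors aligned reads with STAR to GRCh38, counted them per gene and left out mitochondrial transcripts. The paper reports that mitochondrial RNA took a large and variable part of the reads in every sample. Duplicate reads, which made up most of the reads, were marked but not removed from the alignments. Counts without duplicates served the authors as a check for overestimated levels. How many distinct reads underlie a level is not known here. Whether absent levels or large differences in a library come from few distinct reads or from amplification was not tested. The values that the authors deposited are log2(TPM+1). The deposited log2 columns were used as they stand. No counts were used, so the depth is unknown, and the strand setting is not given in the sources used here. Many named genes share exons with another gene on the same or the opposite strand, so their reads may be shared too. Peak lists of p53 ChIP-seq were not used.

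Calls, medians and distances were computed in Python 3.11.15 with numpy 2.4.6 and pandas 2.3.3, and figures drawn with matplotlib 3.10.9. The calling rule was run on simulated, normally distributed levels with shifts planted only in well expressed genes. That run does not bear on genes at low levels or on the spread within 1 line. Transcript GC content, positions and overlaps came from GENCODE 44 for GRCh38. Named genes were the 15 farthest above and the 15 farthest below the range of the other 9 mutants, leaving out clone names, numbered RNA families and pseudogenes (303 of the higher and 22 of the lower genes), up to 4 members outside the range in each of 34 gene lists, and CDKN1A, MDM2, EGFR and genes whose role a list needs. Some genes that this rule names are not reported here, though they stay in the counts over lists. The lists comprise 29 of pathways and gene families and 5 of cell type markers (basal, luminal, fibroblast, endothelial and blood). Of the luminal genes 2 were higher and 1 lower of 6, of the basal genes 3 and 1 of 10, and of the endothelial and blood genes 1 each passed the filter and none was called. The luminal shares were 33.3% and 16.7% and the basal shares 30% and 10%, against 10.3% and 3.16% of all genes. The members and lists were chosen with earlier results of these data known. Alternatives were other filters, pseudocounts, scalings and sets of comparison lines, leaving out each line in turn, and GC content centring.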

Additional observations from a re-analysis of the deposited data

Results flagged for a closer look

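Levels of the named genes called in R248Q were searched for a line that stood apart from the other mutants, by the gap between the most extreme and the next of the 9 comparison lines relative to their range. In 16 of 117 genes the gap passed a limit that independent, normally distributed values pass in about 1 in 20 groups. Levels here cannot fall under 0, and SP140, SERPINB2, MT1M and S100P had a median of 0 in the 9 lines. The genes were also picked from these same values, so the 16 cannot be set against chance. R273H stood apart on the low side for CCND1 (6.05), ACVR1B (0.10), ERAP1 (0.65), OVOL2 (0.49) and BCL2L2 (listed at 0), and on the high side for BCL2 (6.12). Y234C was far below the rest for ERRFI1 (4.97, where the rest had 6.90 to 8.01) and UBE2C (7.12). Y163C stood above the rest for SP140 (1.24), SERPINB2 (2.1) and MT1M (2.25), and G245S for S100P (3.57). PLAT was listed at 0 in G245S. DYNLL2 was high in R175H (5.68), AEN in R273C (5.51) and FTH1 in Y220C (9.84). Among measures of the whole library, the 50 most abundant genes took 46.8% of the TPM in Y234C, against 27.1% to 37.4% in the other 9 mutants. R248Q itself was not the line set apart in that measure.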

How the results depend on the processing

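With no replicate libraries, every alternative changes only how 1 library is placed among the others. The 1535 higher genes became 992 with a log2 level of at least 3 in at least 3 libraries, 2452 against the 3 other contact mutants only, and 656 when a distance of at least 2 from the mean was asked. The 470 lower genes became 1038 with quantile normalization, 1486 without R273H and Y234C, 1323 against the 3 other contact mutants only, 148 at a distance of at least 2, and 1507 with GC content centring. Leaving out each mutant in turn gave 1596 to 1735 higher and 475 to 866 lower genes, the lower count reaching 752 without R273H and 866 without Y234C, which hold the lowest level of many genes. Other filters, pseudocounts, upper quartile scaling, the median in place of the mean, the controls as further lines and no minimum distance stayed within 1.5 times of both counts. Of 117 named genes with a call, none changed direction, and 86 kept it under GC content centring, 104 under quantile normalization, 105 under upper quartile scaling, 106 without R273H and Y234C and 93 with the controls as further lines. Leaving out R273H ended the calls of CCND1, ERAP1 and BCL2, Y234C those of ERRFI1, JUND and BNIP3, Y163C those of TGFB1 and PCNA, Y220C those of B2M and PCNA, and H179R or R175H that of BNIP3. What depth limits is not known, since no counts were used. No paired analysis was possible because each line has 1 library and the replicate numbers carry no pairing.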
